A study of Homo sapiens with 12 samples.

Results

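Genes of the cell division cycle were followed through tumor-associated macrophages (TAMs) that had been cocultured with pancreatic cancer cells. The members were the 45 rows of the deposited table, out of 58735 genes, that carry the symbol of a listed cyclin, cyclin-dependent kinase, replication factor or mitotic gene. Of these, 25 belong to the G1/S and replication arm and 20 to the G2/M arm. TAMs had been derived from THP-1 cells, a human monocytic leukemia line, with the phorbol ester PMA, and they shared medium across a porous membrane with AsPC-1 cells, a human pancreatic cancer line. Bulk RNA was sequenced in 4 groups of 3 libraries. The control group (labelled NC) faced AsPC-1 cells with an empty lentiviral vector. The OE-MMP28 group faced AsPC-1 cells that overexpress the matrix metalloproteinase MMP28. The other two groups, OE-MMP28 + anti-IL-8 and OE-MMP28 + anti-VEGFA, faced the same overexpressing cells with a neutralizing antibody against one secreted cytokine. An isotype antibody group was not among the 4, so an effect of added antibody as such cannot be told apart from neutralization. Every control library came with vector cells and every other library with overexpressing cells, so MMP28 and the preparation of the cancer cells cannot be told apart either. The labels do not say whether the 3 libraries of a group came from separate cultures, so p-values measure the spread between these samples, which may be technical.

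Division is driven by cyclins that switch on cyclin-dependent kinases (CDKs) in turn. D cyclins with CDK4 and CDK6, then E cyclins with CDK2, phosphorylate the retinoblastoma protein and release E2F factors, which turn on genes for DNA synthesis such as the MCM helicase. Cyclin A and the B cyclins with CDK1 then drive G2 and mitosis, and many of their genes share a promoter element called CHR through which the DREAM and B-MYB/FOXM1 complexes act. The CDK inhibitor p21, encoded by CDKN1A, holds these kinases back. PMA is known to turn THP-1 cells into adherent macrophage-like cells that largely leave the cycle, so mitotic transcripts are usually scarce in them. In bulk RNA, fewer dividing cells and less RNA per dividing cell cannot be told apart.

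Library totals lay between 15852346 and 18701195 counts, and mitochondrial transcripts took 6.92% to 17.8% of them, with the highest share in library 2 of the anti-VEGFA group. The macrophage label was checked against 12 markers. Their summed level was 2925 to 3192 CPM, counts scaled to a common library size, in the control group, 3128 to 4527 with OE-MMP28, 3924 to 4641 with anti-IL-8 and 3751 to 4063 with anti-VEGFA. CD14, ITGAM and ITGAX were abundant, whereas CD68 had 0 to 5 counts; 81.7% of its exon bases are shared with another gene on its strand. Of 8 markers of immature myeloid cells, CD34, KIT and MPO were at or near 0, and the summed level was 66.8 to 79.9 CPM in the control group, 56.3 to 120.5 with OE-MMP28, 100.5 to 118.5 with anti-IL-8 and 89.3 to 115.1 with anti-VEGFA. The 12 AsPC-1 markers summed to 3.13 to 6.40 CPM, and EPCAM was at 0 in all 12 libraries. MMP28 itself had 0 counts in all 12, since it was overexpressed in the cancer cells, whose RNA was not analysed here.

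The promoters of the members were searched for the elements described above, and 6 are shown, 3 from each arm, because the data below are read arm by arm. The 6 were picked for having the most matches in their arm, so they are not typical of it. CDK4 and CDKN1A, for example, held 0 matches. RefSeq promoter sequences (GRCh38.p14, 250 bases before to 50 bases after the annotated start) were matched by symbol for 35 of the 45 members, 19 of the G1/S arm and 16 of the G2/M arm. There was no match for CCND1, CCND2, CCNE2, CDK2, MCM4, MCM5, FOXM1, AURKA, UBE2C and BIRC5. Both strands were searched for an E2F site (TTTCCCGC, TTTGGCGC, TTTCGCGC or TTTGCCGC), the CHR (TTTGAA or TTTAAA) and the CCAAT box (CCAAT). Matches to the E2F site on opposite strands can overlap and were counted separately. In the sequences below, which show the 250 bases before the start, capitals mark matches to these motifs. The G1/S genes come first, the helicase subunits MCM6 at chr2:135876444-135876693 (minus strand) and MCM3 at chr6:52284743-52284992 (minus strand) and the factor E2F1 at chr20:33686386-33686635 (minus strand). MCM7 held as many matches as E2F1 and MCM3, 5 each. Matches were counted over the whole stretch searched, so those across or after the start are not in the sequences shown. For that reason MCM3 has 4 of its 5 matches marked, and CENPF 4 of its 6.
MCM6: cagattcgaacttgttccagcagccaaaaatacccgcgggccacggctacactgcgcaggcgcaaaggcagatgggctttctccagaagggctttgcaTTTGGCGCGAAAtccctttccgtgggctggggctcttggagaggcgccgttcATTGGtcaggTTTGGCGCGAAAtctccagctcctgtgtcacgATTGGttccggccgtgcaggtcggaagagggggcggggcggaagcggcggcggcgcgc
E2F1: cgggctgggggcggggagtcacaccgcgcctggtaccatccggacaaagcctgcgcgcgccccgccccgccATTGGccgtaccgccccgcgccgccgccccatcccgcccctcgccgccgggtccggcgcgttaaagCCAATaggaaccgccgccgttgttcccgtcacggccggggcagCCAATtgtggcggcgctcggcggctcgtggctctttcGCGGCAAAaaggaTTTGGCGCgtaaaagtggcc
MCM3: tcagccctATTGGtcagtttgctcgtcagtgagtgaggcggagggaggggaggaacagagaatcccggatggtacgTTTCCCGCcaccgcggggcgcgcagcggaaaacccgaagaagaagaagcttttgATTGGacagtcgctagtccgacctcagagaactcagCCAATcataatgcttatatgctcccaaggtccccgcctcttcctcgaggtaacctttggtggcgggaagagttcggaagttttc
The G2/M genes are cyclin B2 (CCNB2) at chr15:59104896-59105145 (plus strand), the kinetochore gene CENPF at chr1:214602945-214603194 (plus strand) and topoisomerase II alpha (TOP2A) at chr17:40417897-40418146 (minus strand).
CCNB2: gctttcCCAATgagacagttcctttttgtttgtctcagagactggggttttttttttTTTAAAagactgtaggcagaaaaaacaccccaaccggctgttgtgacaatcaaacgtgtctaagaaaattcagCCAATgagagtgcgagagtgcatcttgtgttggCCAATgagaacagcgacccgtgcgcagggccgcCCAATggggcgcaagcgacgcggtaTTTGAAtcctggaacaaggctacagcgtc
CENPF: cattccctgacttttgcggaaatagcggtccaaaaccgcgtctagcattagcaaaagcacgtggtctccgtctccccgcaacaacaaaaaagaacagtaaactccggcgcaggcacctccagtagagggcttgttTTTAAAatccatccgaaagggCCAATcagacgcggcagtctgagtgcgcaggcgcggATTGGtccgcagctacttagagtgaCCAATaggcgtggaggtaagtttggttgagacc
TOP2A: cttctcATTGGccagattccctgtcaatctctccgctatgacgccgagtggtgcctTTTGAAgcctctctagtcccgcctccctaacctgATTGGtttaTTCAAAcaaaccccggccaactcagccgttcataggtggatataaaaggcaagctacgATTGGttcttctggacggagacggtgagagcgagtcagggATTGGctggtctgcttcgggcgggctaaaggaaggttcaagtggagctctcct
An E2F site was found in 9 of 19 G1/S promoters (47.4%), in 2 of 16 G2/M promoters (12.5%) and in 3.31% of all 35116 promoters of the table. The CHR was found in 4 of 19 G1/S promoters (21.1%), 13 of 16 G2/M promoters (81.25%) and 24.0% of all. The CCAAT box was found in 10 of 19 (52.6%), 14 of 16 (87.5%) and 34.6% of all. Both the CHR and the CCAAT box stood in 2 of 19 G1/S promoters, in 11 of 16 G2/M promoters (68.75%) and in 9.27% of all promoters. These are matches of letters and describe no binding.

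Levels between genes were compared as FPKM, the authors' values scaled to gene length and to the size of the library. All 45 members passed the filter on low counts, and the lowest count of any member was 4, for the kinetochore motor CENPE. CDKN1A stood highest with a mean of 205 FPKM over the 12 libraries, followed by cyclin D1 (CCND1) at 94.4, cyclin D3 (CCND3) at 30.1, the CDK4/6 inhibitor CDKN2C at 21.2 and CDK4 at 18.0. Cyclin D2 (CCND2) was near the bottom at 0.182 FPKM. Among the replication genes MCM7 (15.5 FPKM), the sliding clamp PCNA (14.8) and MCM3 (13.2) led. In the G2/M arm the activator of the anaphase-promoting complex CDC20 (11.7 FPKM) and the mitotic kinase AURKA (8.25) led, whereas CDK1 was at 1.97, TOP2A at 1.94, CCNA2 at 1.31 and the proliferation marker MKI67 at 1.00. Summed over the arm, the G1/S and replication genes gave 373 to 517 FPKM per library and the G2/M genes 37.9 to 49.4 FPKM. The G1/S sum was carried mainly by CDKN1A and CCND1, and E2F2 (0.188), CCNE2 (0.371) and CCNE1 (2.44 FPKM) lay below leading mitotic genes such as CDC20.

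**Figure D1:**
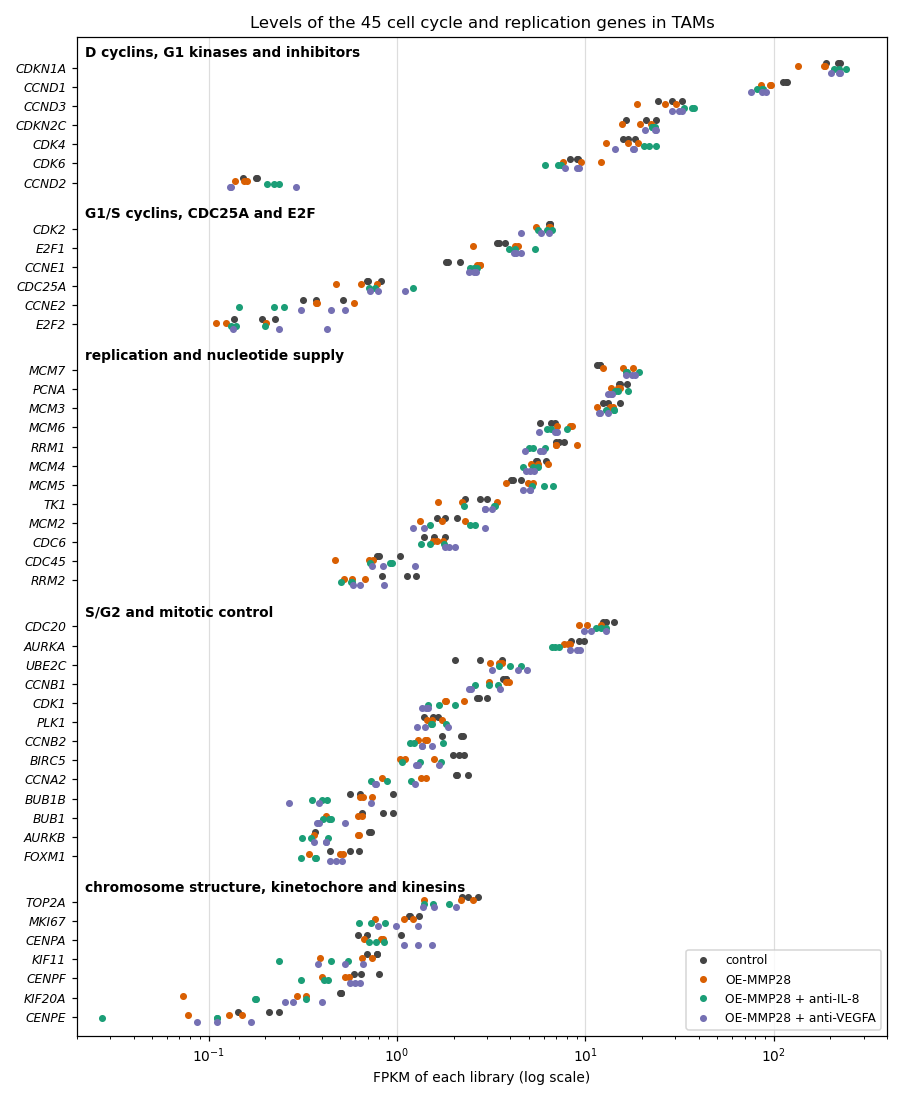
Each row is a gene, ordered by role and mean level; each point is the deposited FPKM of 1 library on a log axis, colored by group. CDKN1A and CCND1 sit at the right, and most G2/M genes lie below 10 FPKM, with control points at the right end of rows such as CCNA2, CDK1, BIRC5 and BUB1.

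The first comparison asked how MMP28 overexpression in the cancer cells changed the TAMs. Compared with the control group, RRM2, the small subunit of ribonucleotide reductase that supplies deoxynucleotides for DNA synthesis, was the member past the threshold with OE-MMP28. RRM2 (ENSG00000171848, GRCh38, chr2:10120698-10131419) measured 4.48, 6.06 and 6.87 CPM in the control libraries and 3.63, 2.81 and 3.12 CPM with OE-MMP28. No library of one group reached the range of the other. The log2 fold change was -0.86 (SE 0.22, adjusted p = 0.039, edgeR's quasi-likelihood test, adjusted by Benjamini-Hochberg over 16046 genes). So 1 of 45 members was called lower, where 2.64% of all tested genes were, and 0 were called higher, where 0.523% of all were. By DESeq2, 3 members were called (6.67%, against 4.14% of all genes), by limma voom 2 (4.44% against 3.27%). RRM2 shares 20.2% of its exon bases with a gene on its own strand (AC007240.1). Its call was lost when any 1 of 8 libraries was left out (control 2 and 3, and each of the OE-MMP28 and anti-IL-8 libraries), with adjusted p up to 0.19 over the alternatives tried. It was also lost on log2(FPKM + 0.1), with the replicate number as a block and when only the 2 groups compared were fitted. That made 11 of 23 alternatives. In the 2-group fit the 1 member called was BIRC5, so the call of RRM2 depended on libraries outside this comparison.

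Several G2/M members lay lower with OE-MMP28 without passing the adjusted threshold in edgeR. Of these, BIRC5 was called in 12 of 23 alternatives, DESeq2 and limma voom among them, and CCNA2 in 2 (DESeq2 and no filter on low counts). The apoptosis inhibitor and chromosomal passenger BIRC5 (survivin) measured 8.26, 8.78 and 7.76 CPM in the control group and 6.05, 4.27 and 4.00 CPM with OE-MMP28, a log2 fold change of -0.79 (SE 0.21, adjusted p = 0.051, edgeR). Cyclin A2 (CCNA2) measured 5.84, 6.70 and 5.92 CPM against 4.01, 3.80 and 2.37 CPM, a log2 fold change of -0.85 (SE 0.25, adjusted p = 0.081, edgeR). In both genes the groups were fully separated. CDK1 had a log2 fold change of -0.51 (adjusted p = 0.12) and KIF20A, a kinesin of cytokinesis, of -1.10 (adjusted p = 0.20), the latter with as few as 5 counts in a library. At the unadjusted threshold of 0.05 that the study used, 11 members were lower and 3 higher, that is 24.4% of the members lower against 8.61% of all tested genes (5.93% higher), and 8 of the 11 were G2/M genes. Fully below the control range were 12 members, 8 of them in the G2/M arm (11.6% of all genes lay fully below), and 3 were fully above it (9.63% of all). The median log2 fold change was -0.29 over the 20 G2/M genes, -0.07 over the 25 G1/S and replication genes and 0.02 over all tested genes. CD14 was called higher with OE-MMP28 (log2 fold change 0.80) and the AsPC-1 marker MUC1 lower (-1.01, at 1.80 against 3.62 CPM). Neither of their lists moved as a whole. Of 11 tested macrophage markers 6 were above 0 and 5 below, with AIF1 at -0.48. Of 3 tested AsPC-1 markers 2 were below 0 and 1 above, ELF3 at 0.85. The mitochondrial share was 8.41% to 12.3% against 7.44% to 9.95%. The part of these markers and of the mitochondrial share in the result was not tested.

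The 3 members that were higher at the unadjusted threshold all belong to G1/S and replication. Cyclin E1 (CCNE1), which starts S phase with CDK2, measured 4.66, 4.79 and 5.63 CPM in the control group and 7.09, 6.90 and 7.12 CPM with OE-MMP28, a log2 fold change of 0.48 (SE 0.16, adjusted p = 0.13, edgeR). MCM7 had a log2 fold change of 0.38 (adjusted p = 0.17) and MCM6 of 0.32 (adjusted p = 0.30), and in all 3 genes every OE-MMP28 library exceeded every control library. MCM7 passed the adjusted threshold when library 2 of the OE-MMP28 group was left out (adjusted p = 0.021). In the opposite direction, CCND1 measured 568, 577 and 548 CPM in the control group and 470, 465 and 418 CPM with OE-MMP28, with an adjusted p of 0.18. CDKN1A measured 676, 696 and 592 CPM against 565, 415 and 579 CPM, a log2 fold change of -0.33 (adjusted p = 0.27). MKI67 and TOP2A, the usual markers of dividing cells, had log2 fold changes of -0.24 and -0.25 (adjusted p = 0.63 for both), and their OE-MMP28 libraries overlapped the control range.

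**Figure D2:**
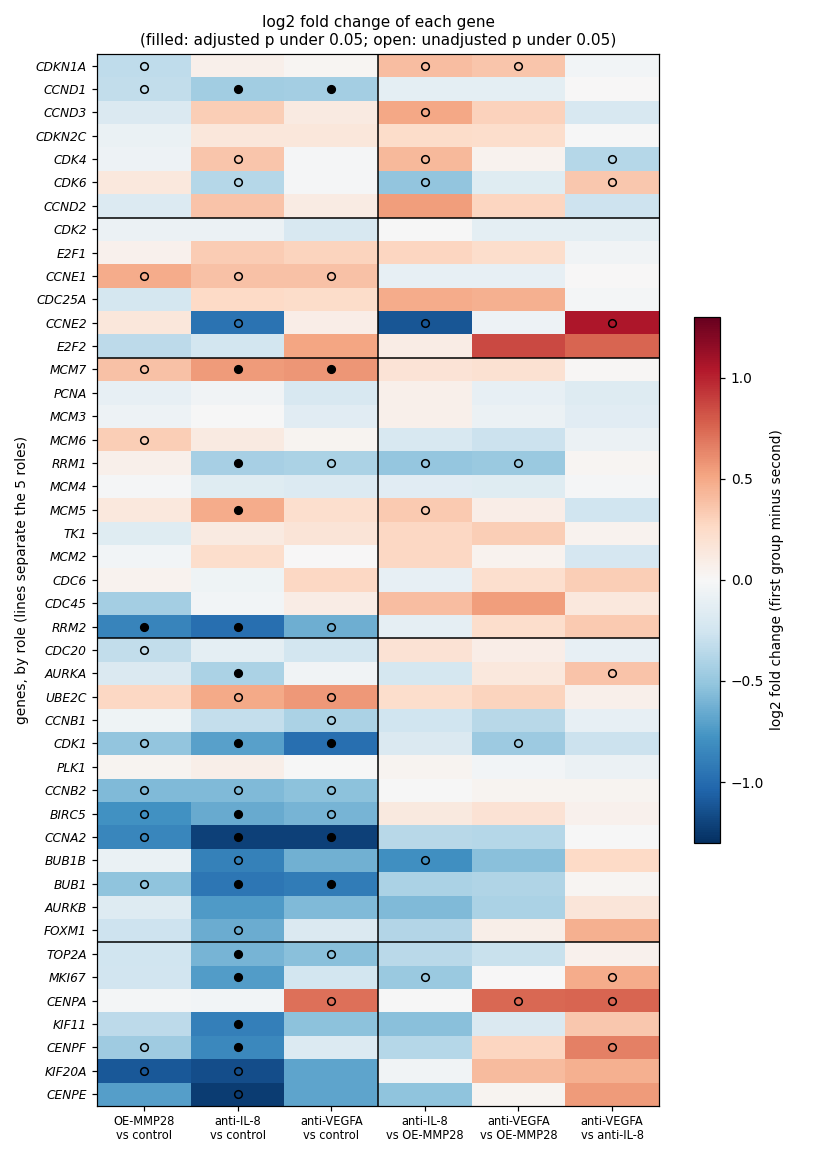
Rows are the 45 genes by role, columns the 6 comparisons; color gives the log2 fold change of the first group over the second, with filled circles at an adjusted p under 0.05 and open circles at an unadjusted p under 0.05. Filled circles stand only in the 3 columns against the control group, most of them in the G2/M rows.

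The next comparisons asked what each antibody changed in TAMs that faced the same overexpressing cells. With anti-IL-8 against OE-MMP28 alone, edgeR called 0 of 45 members in either direction, as it did for all 16046 tested genes (0% higher and 0% lower). DESeq2 called 5 members (CCND3, CDK4 and CDKN1A higher, CDK6 and RRM1 lower), that is 11.1% of them where it called 13.2% of all genes, and limma voom called 0. At the unadjusted threshold 4 members were higher and 5 lower, where 13.4% of all genes were higher and 15.9% lower, so the members' shares did not exceed the background. Among the smallest adjusted p-values were those of 3 genes of the D cyclin and CDK4/6 group. CCND3 measured 154, 110 and 177 CPM with OE-MMP28 and 220, 196 and 212 CPM with anti-IL-8, and the ranges did not overlap (log2 fold change 0.51, SE 0.15, adjusted p = 0.067, edgeR). CDK4 went from 53.8, 41.3 and 61.2 CPM to 69.2, 65.6 and 74.9 CPM (log2 fold change 0.42, SE 0.15, adjusted p = 0.081), while 43.2% of its exon bases are shared with TSPAN31 on the other strand. CDK6, the sister kinase, lay the other way, at 118, 150 and 94.4 CPM with OE-MMP28 and 74.8, 92.0 and 87.0 CPM with anti-IL-8 (log2 fold change -0.51, SE 0.15, adjusted p = 0.063). Cyclin D3 and CDK4 were thus higher, and CDK6 lower, in every anti-IL-8 library than in any OE-MMP28 library, with none past the adjusted threshold in edgeR. In all, 4 members lay fully above and 6 fully below the OE-MMP28 range, where 13.7% and 15.3% of all genes did.

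RRM1, the large subunit of ribonucleotide reductase, measured 29.5, 38.2 and 29.5 CPM with OE-MMP28, 21.2, 22.4 and 25.2 CPM with anti-IL-8 and 25.2, 20.1 and 24.4 CPM with anti-VEGFA. The libraries of both antibody groups lay below all 3 of OE-MMP28. Its log2 fold change was -0.50 with anti-IL-8 (adjusted p = 0.063) and -0.48 with anti-VEGFA (adjusted p = 0.11), comparisons that share the OE-MMP28 libraries. CDKN1A lay above the OE-MMP28 range in both antibody groups, at 640, 685 and 734 CPM with anti-IL-8 (log2 fold change 0.40, adjusted p = 0.083) and 698, 616 and 688 CPM with anti-VEGFA (log2 fold change 0.36, adjusted p = 0.19), levels that overlapped the control group. Cyclin E2 (CCNE2), a low-level gene with 10 to 45 counts, had a log2 fold change of -1.11 with anti-IL-8 (adjusted p = 0.069). Of its exon bases 37.0% are shared with INTS8 on the other strand. MKI67 was at -0.48 (adjusted p = 0.13), and the median over the G2/M genes was -0.30, against 0.10 over the G1/S and replication genes and -0.02 over all genes. Without library 3 of the OE-MMP28 group, 9 members (20%) were called with anti-IL-8, where 25.0% of all genes were, and without library 2 of the anti-VEGFA group 4 (8.89%) were, where 7.08% of all genes were.

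With anti-VEGFA against OE-MMP28 alone, 0 of 45 members were called by edgeR, DESeq2 or limma voom, where edgeR called 0.312% of all genes higher and 0.0312% lower. At the unadjusted threshold, CDKN1A and the centromere histone CENPA were higher and RRM1 and CDK1 lower, 2 members each way (background 10.4% and 8.44%). CDK1 measured 9.02, 7.13 and 7.24 CPM with OE-MMP28 and 5.82, 5.65 and 5.44 CPM with anti-VEGFA, without overlap (log2 fold change -0.47, SE 0.17, adjusted p = 0.17, edgeR). Fully above the OE-MMP28 range were 4 members and fully below it 4 (9.11% and 8.97% of all genes). The G2/M median was 0.02 and the G1/S and replication median 0.08. RRM1 was called when library 3 of the OE-MMP28 group was left out, which gave 1 member in all (2.22%, against 8.48% of all genes).

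Set against the control group, the TAMs with an antibody added had most of their called members in the G2/M arm. With anti-IL-8, 9 of the 20 G2/M members were called lower and 0 higher, and 3 further members fell in the G1/S and replication arm, 12 of 45 in all, where 10.9% of all tested genes were called lower. CCNA2, the cyclin of S phase and G2 (ENSG00000145386, chr4:121816444-121823933), measured 5.84, 6.70 and 5.92 CPM in the control group and 2.06, 3.38 and 2.47 CPM with anti-IL-8. Every anti-IL-8 library was below every control library, and the log2 fold change was -1.22 (SE 0.26, adjusted p = 0.0048, edgeR). CDK1, the kinase that CCNA2 and the B cyclins activate (ENSG00000170312, chr10:60778331-60794852), measured 11.9, 10.6 and 10.9 CPM against 5.79, 8.13 and 6.55 CPM (log2 fold change -0.70, SE 0.17, adjusted p = 0.0090). The spindle checkpoint kinase BUB1 measured 3.95, 5.78 and 5.15 CPM against 2.45, 2.73 and 2.60 CPM (log2 fold change -0.94, SE 0.24, adjusted p = 0.013). BIRC5 fell by 0.66 and AURKA by 0.41 on the log2 scale (adjusted p = 0.037 and 0.027). CCNA2 shares 9.08% of its exon bases with EXOSC9 on the other strand.

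Of the 7 genes of chromosome structure and the spindle, 4 were called lower with anti-IL-8. MKI67 (chr10:128096659-128126385), which coats mitotic chromosomes, measured 15.1, 15.1 and 17.1 CPM in the control group and 8.11, 11.3 and 9.21 CPM with anti-IL-8 (log2 fold change -0.72, SE 0.20, adjusted p = 0.019, edgeR). TOP2A, which untangles replicated DNA, measured 14.3, 17.6 and 15.6 CPM against 9.01, 12.3 and 9.93 CPM (log2 fold change -0.60, SE 0.21, adjusted p = 0.048). CENPF measured 6.96, 7.57 and 9.59 CPM against 5.08, 4.86 and 3.57 CPM (log2 fold change -0.83, SE 0.20, adjusted p = 0.0087), and the spindle motor KIF11 fell by 0.89 (adjusted p = 0.049). In these 4 genes no anti-IL-8 library reached the control range. CENPE and KIF20A had log2 fold changes of -1.24 and -1.15 at low counts, with adjusted p of 0.053 and 0.059. Of the 20 G2/M genes, 14 lay fully below the control range (24.4% of all genes did), 0 fully above it, and 18 had a log2 fold change below 0. The median was -0.68, against 0.07 over the G1/S and replication genes and -0.02 over all genes.

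**Figure D3:**
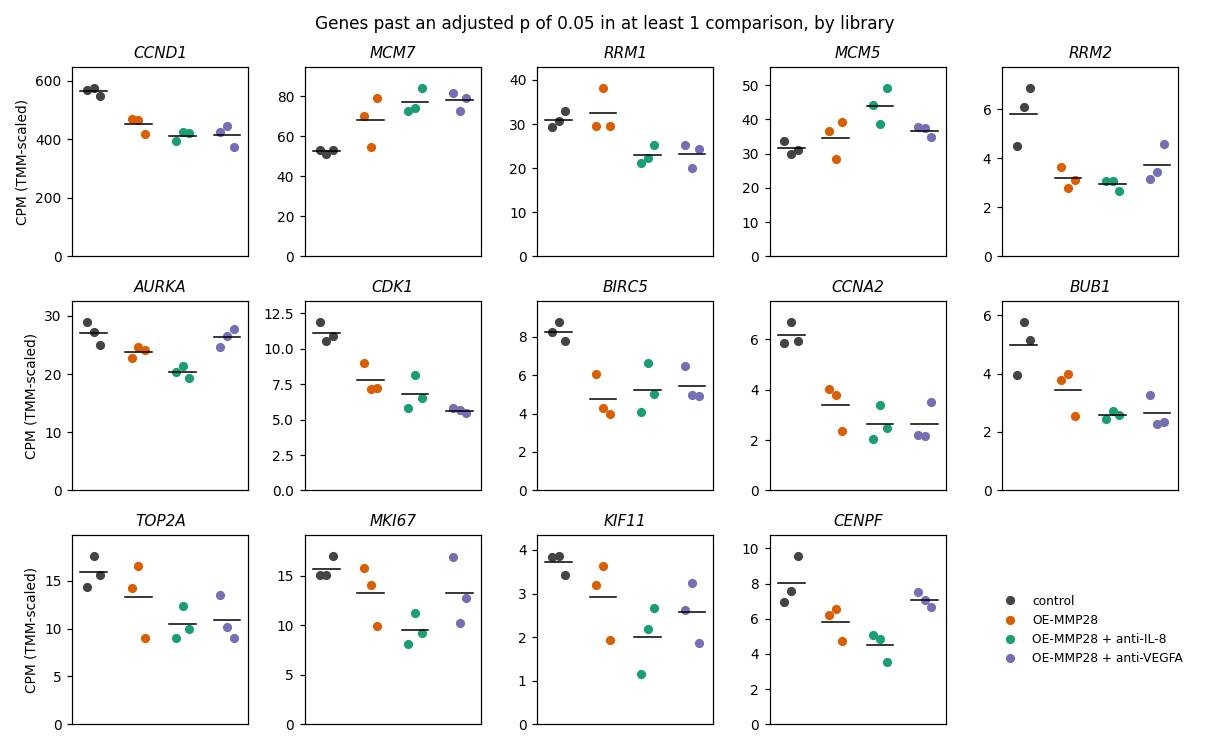
CPM of each library, scaled by TMM size factors, for the 14 genes past an adjusted p of 0.05 in at least 1 comparison; points are libraries, bars group means, and every axis starts at 0. In 4 panels (CCND1, CCNA2, CDK1 and BIRC5) all control libraries lie above every other library; MCM5 and MCM7 have their lowest mean in the control group, and in the other panels the control libraries overlap at least 1 other group.

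Over all 45 members, 20 lay fully below and 7 fully above the control range with anti-IL-8 (23.4% of all genes fully above), and 19 were lower and 5 higher at the unadjusted threshold (18.7% and 17.2% of all genes). The count of calls for anti-IL-8 rested on the libraries used. Leaving out 1 library gave 4 calls without anti-IL-8 library 1 or 3, 5, 6 and 9 without control library 2, 3 and 1, and up to 20 without OE-MMP28 library 2. The share of all genes called moved with it, from 7.94% without anti-IL-8 library 1 (8.89% of members) to 26.2% without OE-MMP28 library 2 (44.4% of members), against 20.7% of all genes and 31.1% of members with every library. CCNA2, RRM2 and MCM7 were called in every one of the 23 alternatives, leave-outs included. CDK1 lost its call without anti-IL-8 library 1, and CENPF without control library 3 or anti-IL-8 library 3. MKI67 and MCM5 lost theirs without control library 2 or 3 or anti-IL-8 library 1 or 3, BUB1 and CCND1 without control library 2 or anti-IL-8 library 1 or 3, and AURKA, BIRC5, TOP2A, KIF11 and RRM1 without any 1 of 5 to 8 libraries. The immature myeloid markers AZU1, ELANE and PRTN3 were also higher than in the control group with anti-IL-8 (log2 fold changes 1.02, 1.08 and 0.83, all past the adjusted threshold in edgeR). The other 2 of the 5 tested markers of that list were below 0 and not called. Of 11 tested macrophage markers 4 were called higher, CD14 among them (1.07), and 0 lower, with 8 above 0 and 3 below. Mitochondrial shares were 7.44% to 9.95% in the control group and 9.01% to 11.3% with anti-IL-8. The part of these in the G2/M result was not tested.

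With anti-VEGFA against the control group, 3 of 20 G2/M members and CCND1 were called lower, 4 of 45, where 5.37% of all genes were. With MCM7, called higher, this made 11.1% of the members in either direction, where 11.0% of all genes were called. CDK1 measured 5.82, 5.65 and 5.44 CPM, each of them below the lowest control library at 10.6 CPM (log2 fold change -0.98, SE 0.17, adjusted p = 0.0013, edgeR). CCNA2 measured 2.20, 2.16 and 3.52 CPM (log2 fold change -1.22, SE 0.26, adjusted p = 0.0060), and BUB1 3.27, 2.29 and 2.35 CPM (log2 fold change -0.91, SE 0.24, adjusted p = 0.021). CDK1 and CCNA2 kept their calls in all 23 alternatives, while BUB1 lost its call without control library 2 or 3 or anti-VEGFA library 2 or 3, and CCND1 without any 1 control library or anti-VEGFA library 3. MKI67 overlapped the control group at 16.9, 10.2 and 12.8 CPM (log2 fold change -0.24, 95% interval -0.63 to 0.14, adjusted p = 0.46). BIRC5, TOP2A and RRM2 had log2 fold changes of -0.60, -0.54 and -0.64 with adjusted p of 0.073, 0.098 and 0.069. The G2/M median was -0.54, with 18 of 20 genes below 0 and 9 of 20 fully below the control range (17.4% of all genes), whereas the G1/S and replication median was 0.08. Over all 45 members, 13 lay fully below and 6 fully above the control range (16.9% of all genes fully above), and 10 were lower and 4 higher at the unadjusted threshold (12.6% and 14.3% of all genes). The number of calls was 2 without control library 2, 3 without control library 3 or anti-VEGFA library 3, and 9 without anti-VEGFA library 1, with 4.02%, 5.80%, 6.70% and 10.2% of all genes called without control library 2, control library 3, anti-VEGFA library 3 and anti-VEGFA library 1. AZU1, ELANE, PRTN3 and MYB of the immature myeloid list were called higher here (log2 fold changes 0.93, 0.89, 0.77 and 0.62). CTSG, the other tested marker of that list, was below 0 (-0.22) and not called. Of the macrophage list CD14 was called higher (0.88) and MSR1 lower (-0.56), and 7 of 11 tested markers were below 0. The mitochondrial share ran from 6.92% to 17.8% with anti-VEGFA. The part of these markers and of the mitochondrial share in the result was not tested.

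A few G2/M genes did not follow the rest of their arm. UBE2C, the ubiquitin-conjugating enzyme of the anaphase-promoting complex, had log2 fold changes against the control group of 0.49 for anti-IL-8 and 0.56 for anti-VEGFA (adjusted p = 0.13 and 0.12). PLK1, a mitotic kinase, measured 6.67 to 7.97 CPM in the control group, 7.27 to 8.69 CPM with anti-IL-8 and 6.16 to 9.09 CPM with anti-VEGFA. CENPA measured 1.24, 1.39 and 2.13 CPM in the control group and 2.20, 3.05 and 2.61 CPM with anti-VEGFA, without overlap (log2 fold change 0.72, SE 0.28, adjusted p = 0.10). Like CCNE1, CCND3, CDK4, CCNE2, CENPE, KIF20A and MCM6, these 3 genes were named after their values were seen.

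Called members of the G1/S and replication arm lay in both directions against the control group, at shares near those of all genes: 8.00% higher and 12.0% lower with anti-IL-8 (all genes 9.77% and 10.9%), and 4.00% each way with anti-VEGFA (all genes 5.6% and 5.37%). MCM7, a subunit of the replicative helicase (ENSG00000166508, chr7:100092728-100101940), rose from 53.1, 50.9 and 53.2 CPM to 72.7, 74.3 and 84.2 CPM with anti-IL-8 (log2 fold change 0.56, SE 0.13, adjusted p = 0.0093, edgeR). With anti-VEGFA it measured 81.8, 72.6 and 79.1 CPM (log2 fold change 0.57, SE 0.13, adjusted p = 0.012), a call lost without control library 2 (adjusted p = 0.067). The control libraries were tightly grouped below both. MCM5, of the same hexamer, measured 33.7, 29.9 and 31.0 CPM in the control group and 44.3, 38.6 and 49.2 CPM with anti-IL-8 (log2 fold change 0.48, SE 0.14, adjusted p = 0.024), but 37.8, 37.6 and 34.8 CPM with anti-VEGFA (log2 fold change 0.22, adjusted p = 0.33). So 2 of 45 members were called higher with anti-IL-8, and anti-VEGFA gave 1, where 9.77% and 5.6% of all genes were. The other 4 MCM subunits were not called in either comparison, and 8.94% of the exon bases of MCM7 are shared with AP4M1 on the other strand.

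CCND1, the D cyclin with the highest level here (ENSG00000110092, chr11:69641087-69654474), was lower in both antibody groups than in the control group. It measured 395, 424 and 421 CPM with anti-IL-8 (log2 fold change -0.45, SE 0.12, adjusted p = 0.014, edgeR) and 425, 445 and 373 CPM with anti-VEGFA (log2 fold change -0.45, SE 0.12, adjusted p = 0.022), against 548 to 577 CPM. All 9 libraries from overexpressing cells were below the 3 control libraries. Of the exon bases of CCND1, 10.3% are shared with LTO1 on the other strand. RRM2 measured 3.09, 3.08 and 2.66 CPM with anti-IL-8 (log2 fold change -0.98, SE 0.22, adjusted p = 0.0075), and RRM1 fell by 0.44 there (SE 0.14, adjusted p = 0.039), a call lost in 11 of 23 alternatives. CCNE1 had a log2 fold change of 0.38 with either antibody (adjusted p = 0.10 and 0.14). PCNA measured 22.4, 22.8 and 25.0 CPM in the control group, 20.3 to 22.7 with OE-MMP28, 21.4 to 25.0 with anti-IL-8 and 19.8 to 20.4 CPM with anti-VEGFA, and was called in none of the comparisons (smallest adjusted p = 0.29). E2F1 ranged from 6.43 to 13.5 CPM, CDK2 from 17.9 to 26.1 CPM and CDC20 from 19.2 to 29.2 CPM over the 12 libraries, and none of them was called in any comparison by edgeR.

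To follow the arms through single libraries, each gene's log2 CPM was set against its mean over the control libraries, and the median was taken over the arm. For G2/M it was -0.06, 0.03 and 0.01 in the control libraries, -0.29, -0.23 and -0.62 with OE-MMP28, -0.75, -0.46 and -0.67 with anti-IL-8 and -0.16, -0.59 and -0.60 with anti-VEGFA. Each of the 9 libraries from overexpressing cells lay below each control library, and the 3 groups of 3 overlapped each other. For G1/S and replication the medians ran from -0.24 (OE-MMP28 library 2) to 0.13 (anti-VEGFA library 2), and all groups overlapped. The SD between libraries of a group was 0.183 for G2/M and 0.101 for G1/S and replication, while the median over all tested genes stayed within -0.03 to 0.02. These are descriptions against shared control libraries, and no test was made of an arm.

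**Figure D4:**
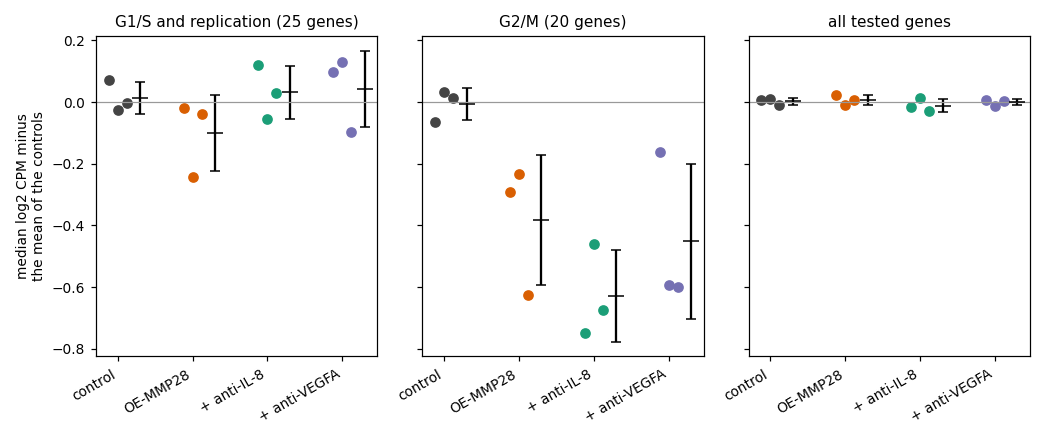
Each point is 1 library: the median, over the genes named above each panel, of log2 CPM minus the mean of the control libraries; the bars beside the points give the mean and SD of the 3 libraries. In the G2/M panel the 9 libraries with overexpressing cells lie between -0.16 and -0.75, below the 3 control libraries, and in the other panels the groups overlap.

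Between the antibodies, 0 of 45 members were called by edgeR, DESeq2 or limma voom (edgeR called 0.193% of all genes higher and 0.00623% lower with anti-VEGFA). At the unadjusted threshold 6 members were higher and 1 lower with anti-VEGFA (background 9.39% and 5.62%), while 8 lay fully above and 4 fully below the anti-IL-8 range (11.3% and 9.64% of all genes). CENPF measured 7.54, 7.05 and 6.67 CPM with anti-VEGFA, above the 3.57 to 5.08 CPM with anti-IL-8 (log2 fold change 0.65, SE 0.20, 95% interval 0.26 to 1.04, adjusted p = 0.16). MKI67 had a log2 fold change of 0.48 (interval 0.09 to 0.87, adjusted p = 0.28) and overlapped between the groups. CCNE2 had 1.05 (adjusted p = 0.19). The differences in MKI67 and CENPF between the 2 antibodies therefore did not pass the test, although anti-IL-8 alone was called for these genes against the control group. All 7 genes of chromosome structure and the spindle had log2 fold changes above 0, with a median of 0.48, against 0.04 over the 13 genes of mitotic control and 0.02 over all genes.

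Genes of the same pathways outside the 45 were counted from 4 lists. The lists were chosen with earlier results of these data known, so their counts are not independent support. Of 50 other G2/M genes tested, 17 (34.0%) were called lower and 0 higher with anti-IL-8 against the control group, where 10.9% of all genes were lower and 9.77% higher, among them the condensin subunit NCAPH (log2 fold change -1.16), the kinase MELK (-1.09), the spindle gene CKAP2 (-0.63) and the kinetochore gene NUF2 (-1.31). With anti-VEGFA against the control group 3 were lower, among them MELK (-0.86), and 3 were higher: CKS2, a CDK-binding subunit (1.14, adjusted p = 0.00041), SPAG5 (0.70) and CDCA2 (0.79). These 6.00% each way were close to the 5.37% and 5.6% of all genes. CKS2 averaged 45.1 CPM with anti-VEGFA and 20.5 CPM in the control group. With OE-MMP28 against the control group 0 of these 50 were called (0 also by DESeq2 or voom), and their median log2 fold change was -0.19. At the unadjusted threshold 3 were lower (6.00%) and 1 higher (2.00%), where 8.61% and 5.93% of all genes were. CDCA2 and the kinesin KIF23 were called higher with anti-VEGFA than with anti-IL-8 (1.52 and 0.89), KIF23 at 29.6 against 16.0 CPM. These 2 genes are 4.00% of the list, where 0.193% of all genes were called higher.

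Of 44 other G1/S and replication genes tested, the exonuclease EXO1 was called lower with OE-MMP28 (log2 fold change -1.23, adjusted p = 0.035, edgeR). This 1 gene is 2.27% of the list, where 2.64% of all genes were called lower. With anti-IL-8 against the control group 6 were lower, including BRCA1 (-1.01), EXO1 (-1.57), the chromatin factor ATAD2 (-0.76) and RAD51AP1 (-1.78), and 1 was higher, shares of 13.6% and 2.27% where 10.9% and 9.77% of all genes were called. With anti-VEGFA 2 were lower, EXO1 and RAD51AP1, and 2 higher, the polymerase subunit POLE (0.50) and the chromatin assembly subunit CHAF1B (0.81), no more than the share of all genes. EXO1, BRCA1 and RAD51AP1 act in DNA repair as well as in replication. The list median was -0.29 with anti-IL-8.

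Among 26 CDK inhibitors, pocket proteins and DREAM subunits, 7 were lower (26.9%, against 10.9% of all genes) and 2 higher (7.69%, against 9.77%) with anti-IL-8 against the control group. RB1, the retinoblastoma gene, averaged 43.7 against 68.2 CPM (log2 fold change -0.64), its relative RBL2 30.2 against 46.9 CPM (-0.64) and E2F3 20.7 against 31.4 CPM (-0.61). The CDK4/6 inhibitor CDKN2D averaged 17.9 against 9.34 CPM (0.94), and with anti-VEGFA 18.5 CPM (0.98). With anti-VEGFA 2 were lower, RBL2 (-0.57) and TFDP2 (-0.70), and 1 higher. These are 7.69% and 3.85% of the list, against 5.37% and 5.6% of all genes. Of 22 p53 target genes, 3 were higher (13.6%) and 2 lower (9.09%) with anti-IL-8, near the 9.77% and 10.9% of all genes: the apoptosis genes BBC3 (1.06), BAX (0.76) and TNFRSF10B (0.51) rose, and MDM2 fell by 0.45. With anti-VEGFA edgeR and limma voom called 1 higher, in edgeR DDB2 (0.49), which is 4.55% of the list against 5.6% of all genes. DESeq2 called 4 of the 22 higher and 0 lower, where it called 13.1% of all genes in either direction. Against OE-MMP28 alone edgeR and limma voom called 0 genes of the 4 lists with either antibody. DESeq2 called 19 there for anti-IL-8 and 3 for anti-VEGFA, and at the unadjusted threshold 44 and 27 passed. Of the 142 genes of these lists, DESeq2 called 13.4% and 2.11% (all genes 13.2% and 2.67%). At the unadjusted threshold 31.0% and 19.0% passed (all genes 29.3% and 18.8%), so the 4 lists pooled were near all genes there. With anti-IL-8 the single lists differed at that threshold, where 13.4% of all genes were higher and 15.9% lower. Of the p53 targets 31.8% were higher and 18.2% lower, and DESeq2 called 5 higher and 4 lower. The CDK inhibitor and DREAM list had 3.85% higher and 30.8% lower. Other G2/M genes had 0% and 24.0%, other G1/S and replication genes 6.82% and 20.5%.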

How the data were processed

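The deposited table holds gene-level read counts and FPKM for 12 libraries. Per the submitters' processing notes, the authors aligned reads with HISAT2 2.0.5 and counted them with featureCounts 1.5.0-p3; gene identifiers and positions are those of GRCh38. The deposited counts are whole numbers and not normalized, and the FPKM were computed by the authors from counts and gene length. How FPKM were scaled, and whether counting used strand, is not given in the sources used here. The table's own comparison columns (log2 fold changes with raw and adjusted p) were not used.

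Counts were analysed with edgeR 4.0.16 in R 4.3.3. Genes were kept by filterByExpr (16046 of 58735), libraries were scaled by TMM, and 1 quasi-likelihood model was fitted over the 4 groups and all 12 libraries, with Benjamini-Hochberg adjustment over all tested genes and calls at an adjusted p under 0.05. CPM were computed from counts and TMM sizes; errors are SD over 3 libraries or SE of the fitted log2 fold change. DESeq2 1.42.0, limma 3.58.1 (voom, or log2 of FPKM plus a pseudocount), other filters and scalings, an unadjusted p under 0.05 in edgeR and the omission of each library were alternatives. The fitting steps were tested on simulated data.

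The members and gene lists were chosen with earlier results of these data known. Named members were those called in at least 1 comparison; MKI67, TOP2A, CDK1, PCNA, E2F1, CCND1 and CDKN1A in any case; the pair with the highest mean FPKM in each of 5 role groups; and, until 20 were named, those with the smallest unadjusted p in the study's 3 comparisons. From each other list, up to 4 called genes with the smallest adjusted p were named. Other members named were chosen after their values were seen. Figures were drawn with matplotlib 3.10.9.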

Additional observations from a re-analysis of the deposited data

How the results depend on the processing

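The direction of the G2/M arm held where the number of called genes did not. Its median log2 fold change stayed below 0 under all 23 alternatives in each comparison with the control group and for anti-IL-8 against OE-MMP28, and it came nearer to 0 on log2(FPKM + 1), at -0.15 for OE-MMP28, -0.29 for anti-IL-8 and -0.20 for anti-VEGFA against the control group and -0.12 for anti-IL-8 against OE-MMP28. For anti-VEGFA against OE-MMP28 the G2/M median was below 0 in 5 of 23 alternatives and reached -0.21 without anti-VEGFA library 1, and the G1/S and replication median reached 0.21 without OE-MMP28 library 1.

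With OE-MMP28 against the control group, the 1 called member became 3 by DESeq2, 2 by limma voom, 0 on log2(FPKM + 0.1), 2 with RLE size factors, 3 without a filter on low counts, 2 with at least 10 counts in every library, 2 among protein-coding genes and 14 at the unadjusted threshold. Leaving out 1 library gave 0 to 2. All genes called went from 507 to 665, 525, 442, 508, 707, 490, 489 and 2332 in the same order, and to 295 to 641 without 1 library. When only the 2 groups were fitted the count stayed at 1, with BIRC5 in place of RRM2 (all genes 495). With anti-IL-8 against OE-MMP28, the 0 became 5 by DESeq2, 3 without a filter and 9 at the unadjusted threshold, and 0 to 9 without 1 library; all genes called went from 0 to 2122, 1438, 4700 and up to 4125. With anti-VEGFA against OE-MMP28 it became 4 at the unadjusted threshold and 0 to 1 without 1 library (all genes 55, 3019 and 8 to 1402). With anti-IL-8 against the control group, the 14 became 22 when only the 2 groups were fitted, 24 at the unadjusted threshold and 4 to 20 without 1 library (all genes 3317, 6039, 5761 and 1312 to 4309). With anti-VEGFA against the control group, the 5 became 14 at the unadjusted threshold and 2 to 9 without 1 library (all genes 1760, 4325 and 662 to 2582). Between the antibodies, the 0 became 7 at the unadjusted threshold and stayed at 0 without any 1 library (all genes 32, 2409 and 3 to 112). The causes were not tested.

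The replicate number was not used as a pairing in the main fit. Same-numbered libraries of different groups correlated at -0.159 to 0.234 in their deviations from the group means, and 3 of 18 pairs exceeded 0.1. These values do not settle whether the libraries were paired. With the replicate number as a block, 0 members were called for OE-MMP28 against the control group, where 3.2% of all genes were. Against it 14 (31.1%) were called for anti-IL-8 and 5 (11.1%) for anti-VEGFA, where 21.5% and 10.9% of all genes were. In the other comparisons 0 members were called. All genes called there reached 795 (4.95%) for anti-IL-8 against OE-MMP28, where the main fit called 0. They were 0.231% for anti-VEGFA against OE-MMP28 and 0.162% between the antibodies. Of the 103 log2 fold changes of single genes that were recomputed, 57 of members and 46 of called genes of the other lists, 0 reversed; 10 of the 46 kept their call in every alternative that could be fitted. Counts of 4 to 45 per library limit CENPE, KIF20A and CCNE2.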
